A study of Mus musculus with 4 samples.

Results

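The imprinted growth network is a set of genes expressed from the maternal or the paternal copy alone in many embryonic tissues. Its members here were chosen by symbol, with no measured value used: Dlk1, Peg3, Mest, Plagl1, Ndn, H19, Meg3, Cdkn1c, Grb10 and Gnas. All 10 were found among the 23107 genes of the deposited tables. They were followed in tdTomato-positive cells labelled as PTHrP-positive, sorted from the dental follicle of mandibular molars at postnatal day 8, after tamoxifen at postnatal day 3. The dental follicle is the mesenchymal sac around a developing tooth. Cells of Ptch1(-/-) genotype (conditional knockout, cKO, 2 libraries) were compared with cells of Ptch1(+/-) genotype (conditional heterozygote, cHet, 2 libraries), so that both groups carried a targeted Ptch1 copy, the reporter and the tamoxifen pulse. No source used here names the driver line, the animals behind a library or their sex. Libraries are called cKO_0, cKO_1, cHet_0 and cHet_1, after the columns of the tables.

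Genes of this kind are imprinted by methylation set in the germ line, which leaves 1 parental copy silent. As background, they act on the size of the embryo: several paternally expressed members promote growth or the progenitor state, and several maternally expressed members restrain it. Most are abundant in fetal mesenchyme and are turned down after birth. A gene-level count does not separate the parental copies, so the values below are totals over both.

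Start-site sequence is shown for 6 of the 10 members. RefSeq (GRCm38.p6) gave start sites for 8 of the 10 members, all except H19 and Cdkn1c. Each line holds the 250 bases before a start site, 5′ to 3′ on the gene's strand. Capitals mark TGCCGC, or GCGGCA on the other strand, the hexamer bound when methylated by the imprint-keeping factor ZFP57. They also mark GGGGCCCC, an octamer described for the zinc-finger protein that Plagl1 encodes, which reads the same on both strands.
Peg3, chr7:6730420-6730669, minus strand: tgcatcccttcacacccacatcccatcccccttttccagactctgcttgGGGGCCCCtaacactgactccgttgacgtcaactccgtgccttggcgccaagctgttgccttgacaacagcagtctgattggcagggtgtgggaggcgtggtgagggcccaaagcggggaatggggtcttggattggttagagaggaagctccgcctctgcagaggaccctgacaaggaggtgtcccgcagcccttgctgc
Mest, chr6:30737800-30738049, plus strand: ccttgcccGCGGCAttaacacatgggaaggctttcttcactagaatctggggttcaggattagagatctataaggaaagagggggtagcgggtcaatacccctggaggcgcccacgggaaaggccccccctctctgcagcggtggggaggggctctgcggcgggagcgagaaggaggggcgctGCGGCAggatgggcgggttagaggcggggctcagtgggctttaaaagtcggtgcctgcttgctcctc
Ndn, chr7:62348027-62348276, plus strand: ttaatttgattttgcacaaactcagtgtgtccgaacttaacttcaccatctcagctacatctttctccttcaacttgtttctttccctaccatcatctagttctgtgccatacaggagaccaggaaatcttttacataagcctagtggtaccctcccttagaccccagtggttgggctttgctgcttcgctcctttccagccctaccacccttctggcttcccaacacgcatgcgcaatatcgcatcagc
Plagl1, chr10:13090582-13090831, plus strand: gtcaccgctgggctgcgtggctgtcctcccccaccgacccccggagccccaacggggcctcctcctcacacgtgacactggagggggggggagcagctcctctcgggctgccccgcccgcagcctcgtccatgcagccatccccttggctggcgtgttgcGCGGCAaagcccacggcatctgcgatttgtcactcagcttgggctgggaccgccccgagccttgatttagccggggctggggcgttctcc
Dlk1, chr12:109452573-109452822, plus strand: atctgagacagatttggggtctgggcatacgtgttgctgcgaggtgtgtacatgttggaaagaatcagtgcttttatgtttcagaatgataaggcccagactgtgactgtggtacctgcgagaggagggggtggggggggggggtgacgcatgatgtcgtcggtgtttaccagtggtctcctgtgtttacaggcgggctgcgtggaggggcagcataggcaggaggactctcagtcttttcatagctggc
Meg3, chr12:109540746-109540995, plus strand: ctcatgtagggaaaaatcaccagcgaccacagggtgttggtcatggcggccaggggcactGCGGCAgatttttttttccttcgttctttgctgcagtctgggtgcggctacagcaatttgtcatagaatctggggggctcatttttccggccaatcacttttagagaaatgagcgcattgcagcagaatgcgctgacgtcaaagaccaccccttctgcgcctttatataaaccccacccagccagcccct
The shown Mest start held 2 hexamers, that of Plagl1 held 1 and that of Meg3 held 1, whereas those of Peg3, Ndn and Dlk1 held none. Of 32536 distinct 250-base promoters, 8.75% held at least 1 hexamer and 0.882% at least 2. Peg3 held 1 octamer, which 0.885% of the promoters had. None of the listed starts of Gnas and Grb10, which are not shown, held either motif. Base composition was uneven: Plagl1 had 19 CpG in its window, Mest 14, Meg3 10, Peg3 8, Dlk1 8 and Ndn 5, against a median of 6 over all promoters. Mest has another listed start upstream, with no hexamer. Meg3 has another listed start downstream, with no hexamer and no CpG in its window. The gene-level values do not say which start was used.

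The scaled totals were close, 69361760 to 71228342 per library, but cHet_1 had an FPKM of at least 1 at 9850 genes, against 11355 to 12360 in the other libraries. Ptch1, the targeted gene and itself a hedgehog target, was listed at scaled counts of 22420 and 23341 in cKO, against 12867 and 5438 in cHet. Its total therefore does not show a loss of transcript, and whether an exon was removed cannot be read from it. Gli1 and Hhip, targets of the pathway, had log2 fold changes (cKO minus cHet, log2(scaled count + 3)) of 0.84 (SE 0.34) and 1.45 (SE 0.24). Neither they nor Ptch1 passed the threshold (limma, Benjamini-Hochberg adjusted p = 0.913 for each). Dental follicle markers were present in every library, with all 11 of 11 above 0. Epithelial markers were present too, with all 9 of 9 above 0 in every library and a summed scaled count of 969404 and 2718175 in cKO, against 584495 and 1488759 in cHet. Amelx and Ambn, enamel matrix genes, made up most of that sum, and 6 of the 9 had a log2 fold change below 0 (median -0.42). Epcam had 621 and 1002 scaled counts in cKO, against 4828 and 2448 in cHet, and Shh 650 and 2875, against 6137 and 6738, neither overlapping. Of the 5 muscle markers, a tissue known for several of these genes, Myod1, Myog and Pax7 were listed at 0 in all libraries. Chrna1 had 154 and 109 scaled counts in cKO, against 13.8 and 2.09 in cHet, and Acta1 had 1.08 and 1.13, against 6.48 and 49.2.

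All 10 members were detected in every library. The differences between cKO and cHet were small: the median log2 fold change of the members was 0.15, against 0.12 over the 14297 genes tested. Over the 8963 genes that averaged 1000 scaled counts or more, as all 10 members did, the median was 0.02. The members' median was 0.05 with median-of-ratios scaling and 0.06 with trimmed-mean scaling, and it was 0.24 without cHet_1 and 0.30 without cKO_1. At a Benjamini-Hochberg adjusted p under 0.05 in limma, 0 of 10 were higher and 0 of 10 lower in cKO, against 0% of all genes in each direction. At an unadjusted limma p under 0.05 the members numbered 0 and 0, and all genes 220 (1.54%) higher and 213 (1.49%) lower. In 3 members, Ndn, H19 and Peg3, both cKO libraries lay above both cHet libraries in scaled counts, where 18.0% of all genes did. Gnas alone lay below in both, where 14.2% of all genes did. In FPKM, H19 still did not overlap, but Gnas did. Ndn (100 and 58.5 FPKM in cKO, against 72.0 and 31.0 in cHet) and Peg3 (60.5 and 26.9, against 47.5 and 19.4) overlapped too. In bulk RNA, fewer expressing cells and less RNA per cell cannot be told apart. The labels do not say whether libraries came from separate animals, so p-values reflect library-to-library spread, which could be partly technical.

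**Figure D1:**
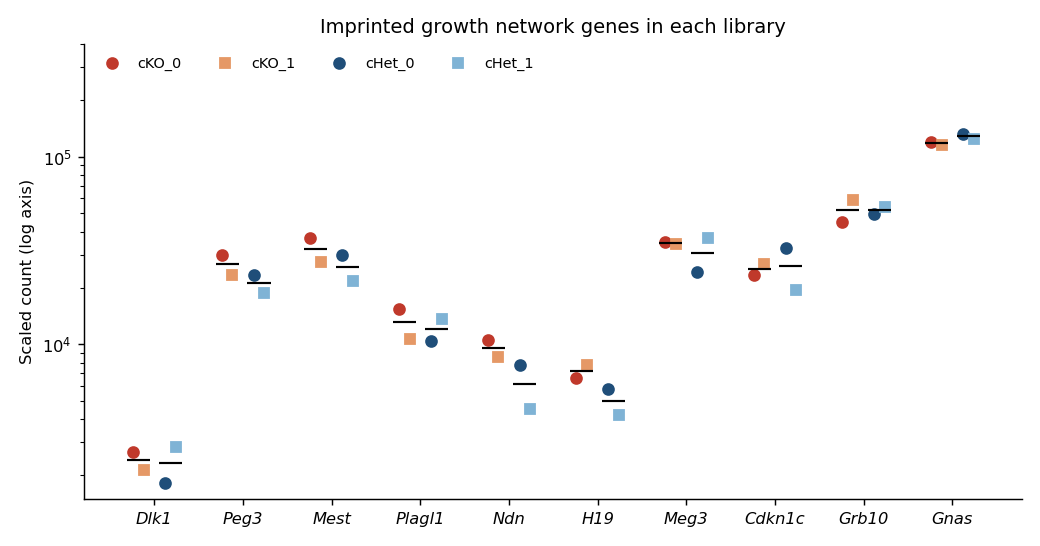
Scaled count (log axis) of each network gene in the cKO libraries (red and orange) and the cHet libraries (dark and light blue); black lines are group means. Ndn, H19 and Peg3 have both cKO libraries above both cHet libraries, Gnas has them below, and the other 6 genes overlap.

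Among the paternally expressed members, Ndn had the largest fold change. Ndn encodes necdin, a MAGE-family protein known as a growth suppressor in neurons. The gene has a single annotated exon in GENCODE, on chromosome 7 (62346569 to 62350262, GRCm38, plus strand). The RefSeq window shown above, 62348027 to 62348276, lies inside that exon, so the 2 sources place the start differently. Ndn had 10611 and 8523 scaled counts in cKO, against 7732 and 4537 in cHet. The groups did not overlap, and the low cHet_1 library set much of the distance between them. The log2 fold change was 0.68 (SE 0.35, 95% interval -0.13 to 1.49, limma adjusted p = 0.913), and it was 0.30 without cHet_1 and 1.07 without cHet_0.

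Peg3 encodes a large zinc-finger DNA-binding protein and is known for its part in maternal behaviour and fetal growth (chromosome 7, 6703892 to 6730431, minus strand). It was listed at 30161 and 23484 scaled counts in cKO, against 23411 and 18857 in cHet. The lower cKO library and the higher cHet library almost met. Its log2 fold change was 0.34 (SE 0.25, interval -0.24 to 0.92, limma adjusted p = 0.913), 0.19 without cHet_1, 0.16 without cKO_0 and 0.52 without cKO_1. Mest encodes a hydrolase-like protein of mesoderm and sits on chromosome 6 (30723547 to 30748465, plus strand). Values of 37020 and 27340 scaled counts in cKO stood against 30151 and 21796 in cHet, so that the groups overlapped. The log2 fold change of Mest was 0.31 (SE 0.27, interval -0.32 to 0.94, limma adjusted p = 0.913), and leaving out 1 library moved it between 0.08 (cHet_1) and 0.55 (cHet_0), with 0.09 without cKO_0 and 0.53 without cKO_1.

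When libraries with the same column number were set against each other, Peg3 and Mest gave nearly the same difference each time. For Peg3 the log2 difference was 0.37 between cKO_0 and cHet_0 and 0.32 between cKO_1 and cHet_1. For Mest these differences were 0.30 and 0.33. Those of Ndn were 0.46 and 0.91, both above 0 but further apart. The column numbers are not said to mark a shared litter, day or batch.

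The remaining paternally expressed members did not share a direction across libraries. Plagl1 encodes a zinc-finger transcription factor that regulates other genes of this network (chromosome 10, 13060504 to 13131694, plus strand). It stood at 15474 and 10740 scaled counts in cKO, against 10456 and 13704 in cHet. The highest and the next to lowest library were both cKO, and the log2 fold change was 0.11 (SE 0.30, interval -0.57 to 0.79). Dlk1 encodes a transmembrane and secreted EGF-repeat protein of progenitors that inhibits fat-cell differentiation (chromosome 12, 109452823 to 109463336, plus strand). It was the lowest member per length, and its scaled counts were 2677 and 2140 scaled counts in cKO, against 1833 and 2849 in cHet. Both extremes were cHet libraries, the log2 fold change was 0.07 (SE 0.52), and the interval of -1.14 to 1.27 was the widest of the 10. Within column numbers the differences turned round, with 0.57 and -0.35 for Plagl1 and 0.55 and -0.41 for Dlk1.

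Of the maternally expressed members, H19 was the only one whose groups did not overlap. H19 is a noncoding RNA that limits growth, partly as the host of miR-675 (chromosome 7, 142575529 to 142578143, minus strand). It was listed at 6604 and 7748 scaled counts in cKO, against 5752 and 4194 in cHet. The log2 fold change was 0.54 (SE 0.33, interval -0.23 to 1.31, limma adjusted p = 0.913), and 0.31 without cHet_1. Within column numbers it was 0.20 for libraries 0 and 0.88 for libraries 1. In FPKM the distance between the groups shrank to a near tie: 37.9 and 32.9 in cKO, against 32.8 and 17.4 in cHet.

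Meg3, a noncoding RNA of the same domain as Dlk1 (chromosome 12, 109541001 to 109571726, plus strand), had 35033 and 34197 scaled counts in cKO, against 24417 and 37101 in cHet. Here cHet_0 was the low library, not cHet_1, and the other 3 lay close together. Its log2 fold change was 0.20 (SE 0.27, interval -0.41 to 0.81), and it was -0.10 without cHet_0. Cdkn1c encodes p57, an inhibitor of cyclin-dependent kinases that holds cells in G1 (chromosome 7, 143458339 to 143461050, minus strand). It stood at 23584 and 26934 scaled counts in cKO, against 32718 and 19460 in cHet. Both cKO libraries lay between the cHet libraries, and the log2 fold change was 0.00 (interval -0.68 to 0.68). Grb10 encodes an adaptor that binds the insulin and IGF1 receptors and dampens their signal (chromosome 11, 11930508 to 12038683, minus strand). Its scaled counts were 45100 and 59087 in cKO, against 49792 and 53886 in cHet. Both cHet libraries lay between the cKO libraries, with a log2 fold change of 0.00 (interval -0.56 to 0.55). For neither Cdkn1c nor Grb10 does the interval leave out a difference of the size seen for Peg3.

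Gnas encodes the stimulatory G protein alpha subunit that couples receptors such as the PTHrP receptor to cyclic AMP (chromosome 2, 174284320 to 174346744, plus strand). The alpha subunit is made from both parental copies in most tissues, while other transcripts of the locus are imprinted, and the gene-level value mixes them. It was the most abundant member per length in every library, and its scaled counts were 120239 and 115823 scaled counts in cKO, against 132341 and 124827 in cHet. The 4 values lay within 1.14-fold of each other, and both cKO libraries were the lower ones. The log2 fold change was -0.12 (SE 0.24, interval -0.68 to 0.43, limma adjusted p = 0.964). Within column numbers it was -0.14 and -0.11. The SE is larger than the spread of these values because limma draws each gene's variance toward that of genes of like abundance. In FPKM the groups overlapped, at 1073 and 921 in cKO, against 1173 and 974 in cHet.

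**Figure D2:**
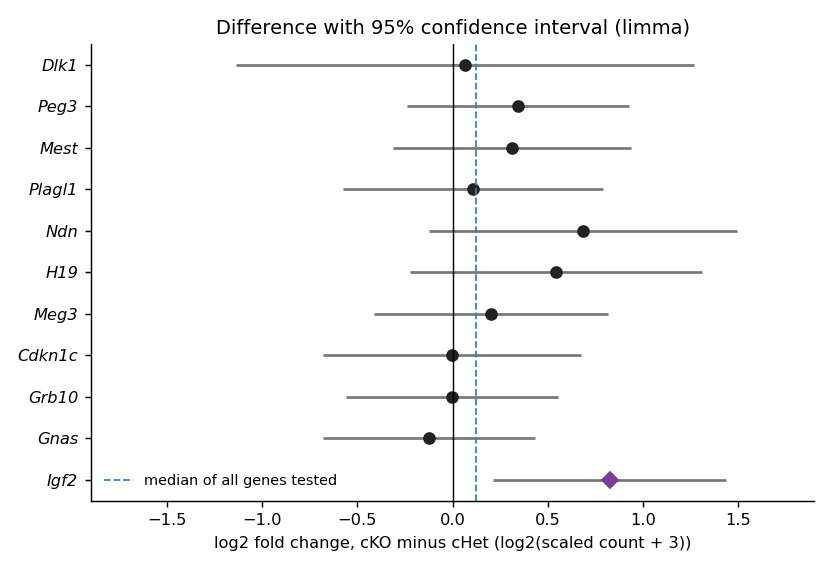
Log2 fold change (cKO minus cHet) of the 10 network genes and of Igf2, with limma's 95% confidence intervals. The dashed line is the median over all genes tested, 0.12, which was 0.02 over the 8963 averaging 1000 scaled counts or more. The interval of each network gene crosses 0, and that of Igf2 runs from 0.21 to 1.44.

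Grouped by the copy known to be expressed, all 5 paternally expressed members had a log2 fold change above 0 (median 0.31), against 56.3% of all genes tested. Their summed scaled counts were 95944 and 72228 in cKO, against 73583 and 61742 in cHet, so that the sums overlapped. Of the 4 maternally expressed members, 2 were above 0 and 2 below (median 0.10). Together the 10 members took 0.469% and 0.447% of all scaled counts in cKO, against 0.459% and 0.423% in cHet. In 4 members (H19, Peg3, Mest and Ndn) both same-number differences were above 0, and in Gnas both were below 0. Over all genes tested the shares were 30.0% and 22.1%. The median over all genes was 0.02 with median-of-ratios scaling and 0.03 with trimmed-mean scaling, against 0.12 as deposited. Under both, H19, Peg3, Mest, Ndn and Meg3 stayed above 0, Plagl1 stood at 0.00 and 0.01, and Dlk1 at -0.038 and -0.027.

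The libraries were ordered in a few recurring ways. Ndn and Peg3 ran from cKO_0 through cKO_1 and cHet_0 down to cHet_1, and so did Igf2. Of the 8963 genes averaging 1000 scaled counts or more, 6.88% had this order. Mest differed only by a swap of the middle libraries, and H19 by a swap of the cKO libraries. Dlk1 and Meg3, neighbours in 1 domain, shared an order with cHet_1 at the top and cHet_0 at the bottom, found in 3.57% of those genes. In 5 of the 10 members cHet_1 was the lowest library, as in 37.7% of genes of that abundance.

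**Figure D3:**
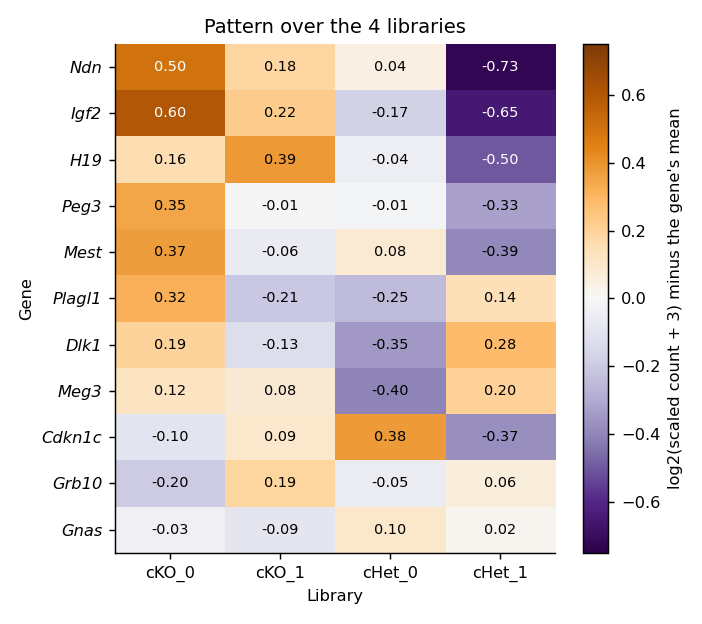
Log2(scaled count + 3) of each gene in each library, less the gene's own mean over the 4 libraries; orange is above the mean and purple below. Ndn, Igf2, H19, Peg3 and Mest are lowest in cHet_1, while Dlk1 and Meg3 are lowest in cHet_0.

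Likeness was measured as the root mean square difference of these centred log2 values over the 4 libraries, among the members and 58 other imprinted genes tested. Mest and Peg3 were 0.06 apart, the closest pair of members. For Dlk1 and for Plagl1 the nearest gene was Kcnq1ot1, a noncoding RNA of another imprinted domain, at 0.03 and 0.09. The nearest to Meg3 was Dlk1 (0.12), to H19 Snrpn (0.08), to Ndn Copg2 (0.07), to Peg3 Dlx5 (0.06), and to Gnas Pon3 (0.05). Cdkn1c had no close neighbour, with Pon2 nearest at 0.14, and Grb10 was nearest to Atp10a at 0.11. With 4 libraries these distances are a description of few points.

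Markers of dividing cells and of other cell types moved with some of these orders. Of the 6 listed proliferation genes, all were present in every library, and their summed scaled counts were 32081 and 26710 in cKO, against 26015 and 20800 in cHet, the order of Ndn, Peg3 and Igf2, although Mki67 and Birc5 were each highest in cHet_1. Schwann cell markers summed to 6824 and 22694 in cKO, against 3012 and 687 in cHet, the order of H19, with Sox10 at 1.08 and 160.0 against 73.7 and 2.09. The sum of the dental follicle markers ran the other way, at 263448 and 234221 in cKO, against 408489 and 611870 in cHet. All 11 markers had a log2 fold change below 0, with Prrx2 at -4.7e-05, and limma called 0 of them. In 5 of the 11 both cKO libraries lay below both cHet libraries, where 14.2% of all genes did. The other markers of this list overlapped. Odontoblast and osteoblast markers summed to 158708 and 145861 in cKO, against 154757 and 271519 in cHet. Of the 6, 3 lay lower in both cKO libraries, where 14.2% of all genes did. Among these were Dspp (log2 fold change -4.91, SE 1.39) and Phex (-4.11, SE 1.11). Dspp had 229 and 9251 scaled counts in cKO, against 27937 and 69633 in cHet. Dmp1 overlapped, and Ibsp (0.05) and Sp7 (0.03) had log2 fold changes just above 0. For mural markers the sums were 86812 and 101470 in cKO, against 82434 and 74635 in cHet, and all 5 had a log2 fold change above 0. Limma called 0 genes of either list. Endothelial markers summed to 3584 and 9001 in cKO, against 2359 and 6379 in cHet, and leukocyte markers to 1137 and 10464, against 1041 and 6686. Their part in the members' values was not tested.

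Levels can be compared between genes only per length, in FPKM. Gnas was the highest member, with a mean FPKM of 1035 over the 4 libraries and a rank between 20 and 38 among all genes. Meg3 followed at a mean of 259.8, then Cdkn1c (189), Mest (135), Grb10 (102), Ndn (65.4), Peg3 (38.6), H19 (30.2), Plagl1 (24.6) and Dlk1 (6.54). Neighbours from Meg3 to Dlk1 in this order overlapped in their ranges over libraries, save that Plagl1 (12.4 to 42.8) stayed above Dlk1 (4.94 to 9.19). Gnas (921 to 1173) stood apart from all the rest. Scaled counts were steadier than FPKM: the highest library exceeded the lowest by 1.14-fold for Gnas to 2.34-fold for Ndn in scaled counts, and by 1.27-fold for Gnas to 3.91-fold for Mest in FPKM. On the log2 scale the within-group SD of the scaled counts ran from 0.05 for Gnas to 0.42 for Ndn. In all 10 members it was below the median (0.43) of the 8963 genes averaging 1000 scaled counts or more. That set was not matched to the abundance of each member.

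The 2 deposited units disagreed by library number rather than by genotype. Peg3 had 2.01 FPKM per 1000 scaled counts in cKO_0 and 1.15 in cKO_1, against 2.03 in cHet_0 and 1.03 in cHet_1. Libraries numbered 0 thus gave nearly the same conversion in both genotypes, and so did libraries numbered 1. The ratio of library 1 to library 0 was lowest for Plagl1, at 0.42 in cKO and 0.37 in cHet. For Peg3 it was 0.57 in cKO and 0.51 in cHet, for Ndn 0.73 and 0.74 and for Gnas 0.89 and 0.88. Meg3 alone had more FPKM per scaled count in libraries 1, at 1.12 in cKO and 1.11 in cHet. The median over 8961 genes was 0.61 in cKO and 0.57 in cHet. FPKM differences between a library 0 and a library 1 therefore mix expression with this conversion, which changes from gene to gene. Within library numbers the FPKM differences of the members had the same signs as those in scaled counts: for Mest 0.28 and 0.49 on the log2(FPKM + 1) scale, and for Ndn 0.47 and 0.89.

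**Figure D4:**
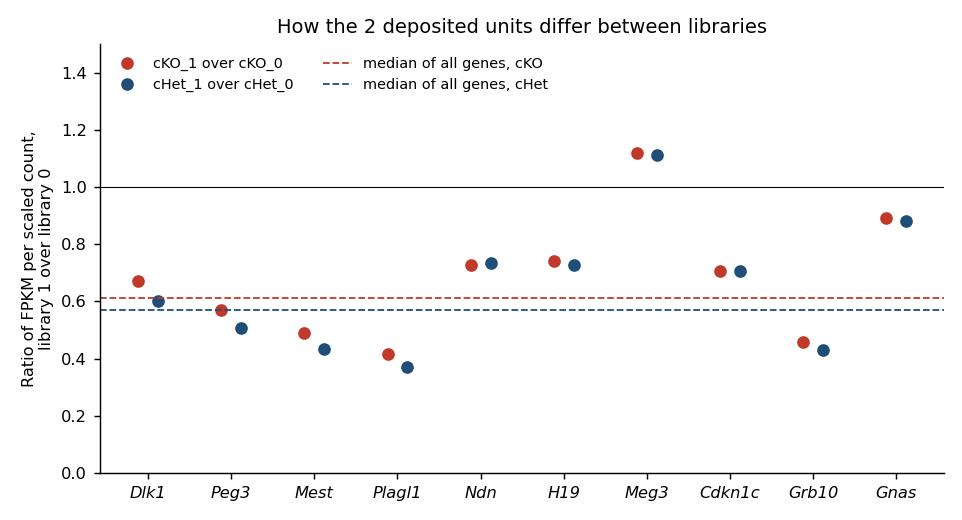
Ratio of FPKM per scaled count in library 1 to that in library 0, for cKO (red) and cHet (blue); dashed lines are medians over 8961 genes. The 2 genotypes give nearly the same ratio for each gene, from 0.37 for Plagl1 to 1.12 for Meg3.

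The H19 neighbour Igf2, the paternally expressed growth factor gene that shares enhancers with H19, had a larger log2 fold change than any of the 10 members. Its start lies 88.7 kb from that of H19 on chromosome 7. Igf2 stood at 63435 and 48882 scaled counts in cKO, against 37180 and 26615 in cHet. The groups did not overlap, the log2 fold change was 0.82 (SE 0.27, interval 0.21 to 1.44), the unadjusted limma p was 0.0147 and the adjusted p 0.913. Within column numbers the differences were 0.77 and 0.88. Its fold change was 0.58 without cHet_1 and 1.06 without cHet_0. In FPKM the groups overlapped, at 241 and 113 in cKO, against 141 and 53.1 in cHet. Igf2 and H19, expressed from opposite parental copies, thus both had their higher scaled counts in cKO.

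Other neighbours were described domain by domain. In the Dlk1-Dio3 domain all 4 tested neighbours had a log2 fold change above 0, and in the Ndn domain all 6 did, against 56.3% of all genes tested. Most were lowest in cHet_1 (3 of 4 and 5 of 6). Rtl1 (19.4 and 44.3 scaled counts in cKO, against 90.7 and 0 in cHet) and Mkrn3 (342 and 97.6, against 628 and 2.09) had lower mean scaled counts in cKO. Rian, a noncoding RNA 151 kb from the Dlk1 start, had 1544 and 1194 scaled counts in cKO, against 785 and 1472 in cHet, the same low cHet_0 library as Meg3. Dio3, which encodes a deiodinase that inactivates thyroid hormone, stood at 3008 and 2609 in cKO, against 3633 and 682 in cHet. Ube3a, a ubiquitin ligase gene of the Ndn domain, had 10306 and 6206 scaled counts in cKO, against 10533 and 387 in cHet, so that cHet_1 alone was low. Snrpn, a splicing-protein gene, did not overlap between groups, at 1588 and 1678 in cKO, against 1407 and 1050 in cHet (log2 fold change 0.42, SE 0.69). Copg2, which overlaps Mest on the opposite strand, had 2543 and 1884 in cKO, against 1841 and 1160 in cHet. No source used here states whether strand was used in counting, so reads of Mest and Copg2, and of Gnas and its antisense neighbour Nespas, may be shared in part.

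Around Grb10 the neighbours had lower values in cKO. Cobl, an actin nucleator gene 426 kb away, stood at 505 and 347 scaled counts in cKO, against 757 and 3140 in cHet (log2 fold change -1.87, SE 1.11). It was -0.85 without cHet_1 and -2.90 without cHet_0. Ddc, a decarboxylase gene 141 kb away, was listed at 0 and 2.27 in cKO, against 108 and 325 in cHet, with an unadjusted limma p of 0.05 and an adjusted p of 0.913. In the Kcnq1ot1 domain, Cd81, a tetraspanin gene, had scaled counts of 42174 and 36031 in cKO, against 41480 and 34675 in cHet. Kcnq1ot1 itself had 11412 and 8945 in cKO, against 7904 and 11582 in cHet (log2 fold change 0.08, SE 0.31). Of the 8 genes tested in this domain, Cdkn1c included, 2 lay higher and 1 lower in both cKO libraries. Over all genes tested these shares were 18.0% and 14.2%. Osbpl5 (10281 and 7868 in cKO, against 6618 and 7124 in cHet) and Slc22a18 (223 and 235, against 115 and 1.05) were the higher 2. Tspan32 (135 and 6.81, against 225 and 265) was the lower. Next to Peg3, Zim1 had 1688 and 1723 in cKO, against 1548 and 3593 in cHet, and Usp29 stayed under 50 in every library. Over the 25 neighbours tested, 16 were lowest in cHet_1 (64.0%), against 43.3% of all genes tested.

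**Figure D5:**
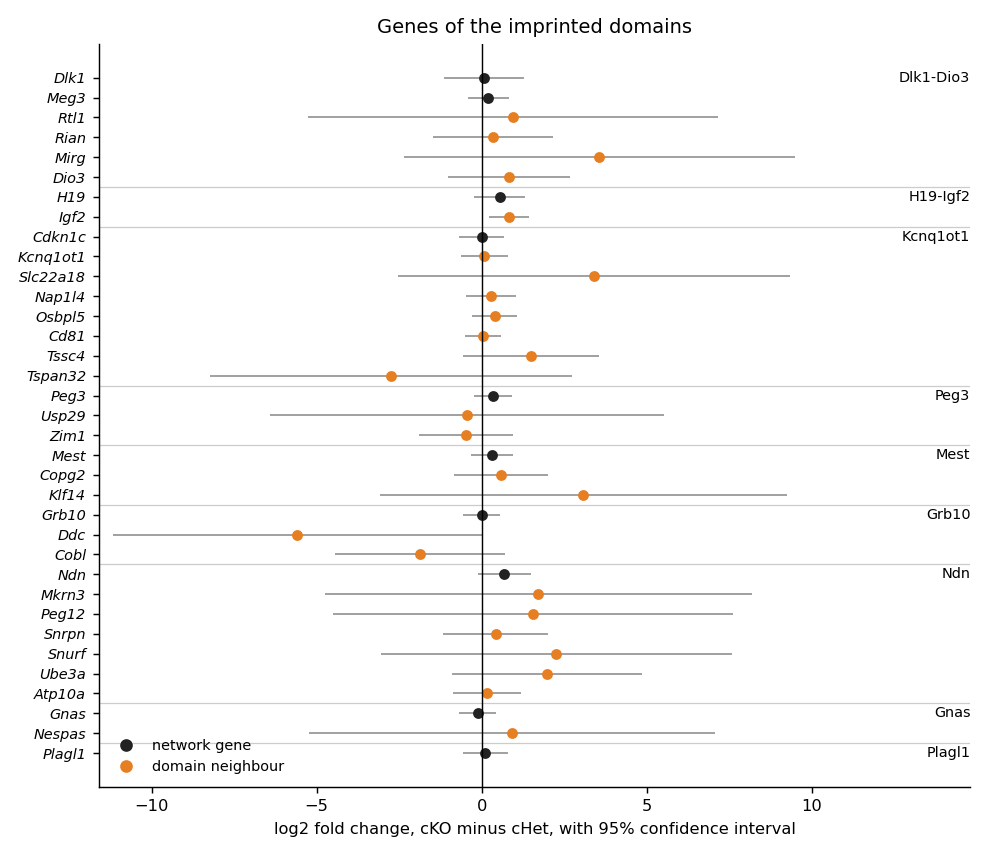
Log2 fold change (cKO minus cHet) with limma's 95% confidence interval for the tested genes of each imprinted domain; black points are network genes and orange points their neighbours. Intervals are narrow for the network genes and wide for low neighbours such as Mirg and Klf14, and those of Igf2 and Ddc alone lie on 1 side of 0.

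The wider list of imprinted genes held 73 symbols, of which 71 were in the tables and 58 passed the filter on low values. In limma 0 were called higher and 0 lower at an adjusted p under 0.05, against 0% of all genes each way. At an unadjusted p under 0.05 there were 2 and 2, against 1.54% and 1.49% of all genes. The groups did not overlap for 16 higher and 8 lower, against 18.0% and 14.2% of all genes tested. The median log2 fold change was 0.30, but 0.15 among the 34 that averaged 1000 scaled counts or more, against 0.02 for all genes of that abundance. Single cHet libraries decided this median: it was 0.000258 without cHet_1 and 0.57 without cHet_0, where that of all genes tested was -0.05 and 0.23. The 4 with the lowest p on the higher side were Nap1l5, Igf2, Herc3 and Trappc9, and on the lower side Dcn, Ddc, Igf2r and Cobl. Nap1l5, a nucleosome-assembly protein gene inside Herc3 on chromosome 6, stood at 5337 and 6556 scaled counts in cKO, against 841 and 1709 in cHet. Its log2 fold change was 2.30 (SE 0.53, interval 1.09 to 3.51, limma adjusted p = 0.913), its unadjusted p was 0.00233, the same-number differences were 2.66 and 1.94, and the adjusted p was 0.0499 without cHet_0 and at least 0.800 in the fits that left out another library. Herc3 had 1072 and 2654 in cKO, against 966 and 10.5 in cHet, with a log2 fold change of 3.89 (SE 2.09) that was 0.80 without cHet_1 and 6.97 without cHet_0. The proteoglycan gene Dcn, imprinted in mouse placenta, had 19594 and 23248 in cKO, against 54343 and 46719 in cHet. Igf2r, which encodes the receptor that clears IGF2, overlapped at 8956 and 4405 in cKO, against 7860 and 14127 in cHet. The limma adjusted p was 0.913 for each of these.

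Genes that keep imprints in place and partners of the members were followed from lists of the same kind. Of 17 tested maintenance genes, 0 were called in limma, 8 had a log2 fold change above 0 and 9 below, with a median of -0.03. The ZFP57 gene, Zfp57, had 1270 and 807 scaled counts in cKO, against 1078 and 1315 in cHet. Trim28, its corepressor, stood at 18817 and 13350 in cKO, against 18251 and 16674 in cHet. Dnmt1, the maintenance DNA methyltransferase gene, followed the column number, at 7325 and 2769 in cKO, against 5267 and 2124 in cHet.

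Of 38 tested partners, 0 were called in limma, with a median log2 fold change of 0.15, and the groups did not overlap for 9 higher and 2 lower, where all genes gave 18.0% and 14.2%. Pth1r, the PTHrP receptor gene upstream of the Gnas product, lay at 13511 and 13297 scaled counts in cKO, against 12053 and 13416 in cHet (log2 fold change 0.08, SE 0.25). Igf1r had 12702 and 9394 in cKO, against 9863 and 9189 in cHet, and Insr 1584 and 1412, against 1882 and 3590. Among relatives of Cdkn1c, Cdkn1a had 3255 and 9482 in cKO, against 13081 and 9294 in cHet, and Cdkn1b 1239 and 1628, against 1098 and 733. Among the 4 tested MAGE relatives of Ndn, Magee1 did not overlap between the groups, at 6763 and 5498 scaled counts in cKO, against 4509 and 5125 in cHet (log2 fold change 0.34, SE 0.33). Mageh1 overlapped, at 2300 and 1282 in cKO, against 2087 and 4598 in cHet. Both were added to the named genes after their values were seen. Maged1 and Maged2 had more FPKM than Ndn in every library, and their groups overlapped. Maged1 stood at 80262 and 90004 scaled counts in cKO, against 82530 and 68219 in cHet. For Maged2 the counts were 55863 and 46652 in cKO, against 45065 and 49148 in cHet. Plagl2, a relative of Plagl1, had 2923 and 1896 in cKO, against 2686 and 1775 in cHet, while Plag1 was below 60 in every library. Dlk2, the relative of Dlk1, was high in libraries 0 of both genotypes, at 642 and 123 in cKO, against 863 and 11.5 in cHet.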

How the data were processed

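RNA of tdTomato-positive sorted cells was amplified with SMART-Seq v4 and made into libraries with Nextera XT, per the labels' protocols. Per the submitters' processing notes, Bowtie2 2.2.1 and TopHat2 2.0.13 were used with mm10, beside HTSeq, DESeq2, FastQC, Cuffdiff and Cufflinks. Their roles, and the use of strand, were not stated. The scaled counts are a signal unit: the authors divided the gene counts of each library by 1 factor, per the table's name and values, and no raw counts were used here. FPKM values, relative to transcript length and fragment total, were deposited by the authors in a separate table and served as an alternative. As the raw read depth of a library is unknown, no counting intervals are given.

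Another 16 columns in 4 tables, whose names match no label, were left out. Numbering starts at 0 in the columns used but at 1 in the titles, so a column was given its genotype only. The 4 libraries were fitted with limma 3.58.1 (R 4.3.3, mean-variance trend, genotype as the only term) on log2(scaled count + 3). Genes needed a scaled count of 10 in 2 libraries, and p-values were Benjamini-Hochberg adjusted over all 14297 genes that passed, with a threshold of 0.05. A fold change on this scale understates that of low genes. The text names the members, their domain neighbours, 4 other imprinted genes a direction (those of lowest p), each member's nearest gene in pattern, and genes of the partner and maintenance lists picked by symbol. The members were set by gene symbol, with no measured value used. The other lists were written with earlier results of these data known. Gene positions are from GENCODE (GRCm38) and start-site sequence from RefSeq. Alternatives covered the pseudocount, the filter, the scaling, the unit, library weights, the variance trend, a replicate block and the omission of each library.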

Additional observations from a re-analysis of the deposited data

How the results depend on the processing

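With 2 libraries a group, small differences between the genotypes could not be resolved: the median SE over all genes was 0.74 on the log2 scale. None of the 10 members was called in any of the 16 alternatives. H19, Peg3, Mest and Ndn stayed above 0 and Gnas below 0 in all 16, with Ndn at 0.30 to 1.07 and H19 at 0.31 to 0.77 when 1 library was left out. Dlk1 turned to -0.038 with median-of-ratios scaling and -0.027 with trimmed-mean scaling. In FPKM, Cdkn1c stood at 0.032 on the log2(FPKM + 1) scale with or without the filter and 0.033 on the log2(FPKM + 0.1) scale, and Grb10 at 0.017 in all 3 settings. With 1 library left out, Dlk1 ranged between -0.25 and 0.38, Meg3 between -0.10 and 0.50, Cdkn1c between -0.38 and 0.37, Grb10 between -0.20 and 0.19 and Plagl1 between -0.16 and 0.37. Such fits leave a group with 1 library, assumed to vary like the others.

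Over all genes, limma called 3 higher and 4 lower in log2(FPKM + 1) with the filter, and 1 and 1 in log2(FPKM + 0.1). With 1 library left out, 0 to 1061 genes were called higher and 0 to 78 lower. Leaving out cHet_0 gave 1061 and 78. Omitting cHet_1 gave 0 and 0, while 7 and 5 were called in the absence of cKO_0 and 10 and 32 in that of cKO_1. The cause was not tested. Without cHet_0, Nap1l5, Herc3, Ptch1 and Hhip passed the threshold, with log2 fold changes of 1.79, 6.97, 2.07 and 1.47. Without cHet_1 these were 2.81, 0.80, 0.83 and 1.43, and none passed. With the column number as a replicate block, 0 genes were called in either direction and Ndn stood at 0.68 (SE 0.30, limma adjusted p = 0.922). The labels do not say that the numbers pair the libraries. In log2(scaled count + 3), the deviations of same-numbered libraries had a Pearson r of 0.05 across 14297 genes. The conversion of scaled counts to FPKM, in contrast, was nearly shared by libraries of the same number, as described above.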

Other observations

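H19 hosts miR-675, whose mature forms are shown with the seed (bases 2 to 8) in capitals, from RefSeq (GRCm38.p6), on chromosome 7, minus strand (5p at 142577112 to 142577133, 3p at 142577078 to 142577099).
miR-675-5p: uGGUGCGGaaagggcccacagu
miR-675-3p: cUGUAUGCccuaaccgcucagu
The row of its precursor, Mir675, held scaled counts of 17.1 and 15.0 in cKO, against 0 and 70.2 in cHet. The highest and the lowest value were both in cHet, and cHet_1, the lowest library for H19, was the highest for Mir675. The precursor lies inside H19 on the same strand, so reads of host and precursor cannot be told apart, and a library of this kind does not measure mature miRNAs. Mir335, hosted by Mest, and Mir770, hosted by Meg3, were listed at 0 in all 4 libraries.

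The partner list held Adcy2, an adenylyl cyclase gene whose enzyme is activated by the Gnas product; it was singled out after its values were seen. It stood at 19033 and 13206 scaled counts in cKO, against 5446 and 5770 in cHet. The ratio of cKO to cHet was 2.83 on the fitted scale (95% interval 1.76 to 4.53, limma adjusted p = 0.913), with both cKO libraries above both cHet libraries.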
